A study of Homo sapiens with 12 samples.

Results

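The genes described here encode band 3 and proteins of the membrane skeleton of the red cell. They were taken by name from the table of gene counts and are SLC4A1, ANK1, SPTB, EPB41, EPB42, ADD2, DMTN, TMOD1 and MPP1. These were 9 of the 58735 genes in the table, and all 9 were among the 20821 genes with enough counts for a test. RNA was sequenced from K562, an established human erythroleukemia cell line. All conditions thus share the BCR-ABL1 fusion of K562, whose kinase nilotinib was made to inhibit. The 4 conditions had 3 biological replicates each, in 12 libraries. Mock DMSO cells received the solvent and no hemin, mock nilotinib cells received 0.1 µM nilotinib and no hemin, hemin DMSO cells received solvent and then 50 µM hemin for 24 h, and hemin nilotinib cells received 0.1 µM nilotinib and then 50 µM hemin for 24 h. The methods give collection at the start and at the end of the hemin period, so hemin and 24 h more in culture, with or without nilotinib, cannot be told apart in the comparisons of hemin with mock libraries. The sources of the study differ on how long mock nilotinib cells had the drug. Time with nilotinib therefore also cannot be told apart from hemin in the interaction, and differences in exposure time are part of the comparison of mock nilotinib with hemin DMSO. The design asks how nilotinib acts on these genes with and without hemin, and how hemin acts on them alone.

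The membrane of the red cell is held up by a hexagonal net of spectrin tetramers that is fastened to the lipid bilayer. Ankyrin (ANK1) ties β-spectrin (SPTB) to band 3 (SLC4A1), the chloride-bicarbonate exchanger, and protein 4.2 (EPB42) strengthens this link. Spectrin ends meet at a short actin filament, the junctional complex, where protein 4.1R (EPB41), p55 (MPP1), β-adducin (ADD2), dematin (DMTN) and tropomodulin (TMOD1) bind. Inherited defects of SLC4A1, ANK1, SPTB, EPB41 and EPB42 cause spherocytosis or elliptocytosis, and most of the set is known to rise as erythroblasts mature.

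GATA1, a transcription factor of erythroid cells, binds DNA words built on the letters GATA, and promoters of red cell genes are known to hold them. The RefSeq promoter table (build GRCh38.p14) had entries for 6 of the 9 genes (EPB41, ADD2, TMOD1, SPTB, EPB42 and MPP1), with 10 start sites in all, and not for SLC4A1, ANK1 and DMTN. The 250 bases before each start were searched on both strands for 4 words. The first word was AGATAA. Its form with a final guanine, the second, was AGATAG. With thymine in first place the other two were TGATAA, for the form ending in adenine, and finally TGATAG. At least 1 of them was in 5 of the 10 windows, each of a different gene, against 22.3% of the 35116 promoters of the table. The word AGATAA itself was in 3 of the 10 windows, those of SPTB, EPB42 and MPP1, against 9.17% of all promoters. These 3 are shown because they hold that word in 3 genes whose responses to nilotinib differed widely in size. All lie on the minus strand, are written 5′ to 3′ as the gene reads and, but for a second EPB42 site, stop where an annotated transcript begins. That second site lies inside an annotated transcript. Capitals mark the GATA words on either strand. The SPTB window is chr14:64879908-64880157, the EPB42 window is chr15:43221126-43221268 with a second site at chr15:43221062-43221091, and the MPP1 window is chrX:154805528-154805735, inside the gene at a start downstream of its outermost exon.
SPTB: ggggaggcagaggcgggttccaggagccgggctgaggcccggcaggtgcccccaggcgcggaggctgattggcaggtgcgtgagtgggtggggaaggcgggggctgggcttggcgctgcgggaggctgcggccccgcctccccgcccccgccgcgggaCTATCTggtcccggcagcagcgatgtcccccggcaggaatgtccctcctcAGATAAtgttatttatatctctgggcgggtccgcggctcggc
EPB42: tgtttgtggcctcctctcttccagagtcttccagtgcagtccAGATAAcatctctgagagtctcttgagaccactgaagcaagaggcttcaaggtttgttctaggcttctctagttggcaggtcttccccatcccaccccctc
EPB42 second site: tcctggcacaagAGATAAaatgaacagggt
MPP1: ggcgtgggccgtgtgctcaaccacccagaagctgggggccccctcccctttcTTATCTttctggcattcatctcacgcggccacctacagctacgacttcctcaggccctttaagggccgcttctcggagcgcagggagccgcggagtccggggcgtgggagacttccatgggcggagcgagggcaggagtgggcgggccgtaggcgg
The SPTB window held CTATCT, the reverse complement of AGATAG, from 92 to 87 bases before the start and AGATAA from 42 to 37 bases before it. In EPB42 the word AGATAA stood from 208 to 203 and from 61 to 56 bases before the start, and in MPP1 its reverse complement TTATCT stood from 198 to 193 bases before the start. A match is a description of the letters in these windows, and binding was not measured.

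Total counts per library ranged from 33457078 to 50506990, and the 9 genes together took 0.211% to 0.259% of them in mock DMSO, 0.938% to 1.18% in mock nilotinib, 0.0904% to 0.110% in hemin DMSO and 0.974% to 1.04% in hemin nilotinib. The erythroid label of the cells was checked on 8 markers (HBG1, HBG2, HBZ, HBE1, ALAS2, EPOR, TFRC and AHSP), none of which was at 0 in all libraries and whose summed level ranged from 704 to 1496 CPM (counts scaled to a library of 1000000) in mock DMSO and from 9829 to 12088 CPM in mock nilotinib. At an adjusted p under 0.05, 7 of the 8 were higher with nilotinib under hemin, against 32.4% of all tested genes. Without hemin 7 were also higher, against 20.7%. With hemin the same sum was 905 to 1105 CPM without nilotinib and 8062 to 16558 CPM with it. Hemin alone split these markers, with 3 of the 8 higher and 2 lower and a median log2 fold change of 0.24. Of all genes, 25.7% were higher and 27.8% lower with hemin alone. The 8 myeloid markers summed to 118 to 134 CPM in mock DMSO, 18.7 to 21.2 in mock nilotinib, 94.2 to 121 in hemin DMSO and 10.5 to 14.9 in hemin nilotinib, none at 0 in all libraries. With nilotinib under hemin 6 of the 6 tested were lower, against 31.8% of all genes. Without hemin 4 of 6 were lower, against 21.8% of all genes, and CD14 (-1.15) and CSF1R (0.84) did not pass the test. With hemin alone 2 of the 6 were higher, CD14 by 4.26 and CSF1R by 3.03 on the log2 scale, and 3 were lower. Of all genes, 25.7% were higher and 27.8% lower in that comparison. The 10 megakaryocyte markers summed to no more than 75.1 CPM and the 6 lymphoid markers to no more than 25.8 CPM in any library. With nilotinib under hemin 2 of the 4 tested megakaryocyte markers were higher and 2 lower, against 32.4% and 31.8% of all genes. In the same comparison 2 of the 3 tested lymphoid markers were lower, against 31.8%. GP1BB had 0 counts in every library, and PF4, SELP, CD2 and MS4A1 never had more than 3. The part of these shifts in the results below was not tested. In RNA from whole cultures, fewer cells of a type and less RNA per cell cannot be told apart.

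Levels are given per kilobase, as CPM scaled by TMM (edgeR's correction for library composition) and divided by the kilobases of the exon length that the count table lists, so that genes can be compared with each other. Nilotinib raised nearly the whole gene set, and band 3 moved furthest. Without nilotinib SLC4A1 was among the lowest of the 9 genes, and with nilotinib it was the highest in every library. The summed level of the 9 genes was 253 ± 35.8 (SD, n = 3) in mock DMSO, 1655 ± 251 in mock nilotinib, 139 ± 21.9 in hemin DMSO and 1638 ± 65.5 in hemin nilotinib. SLC4A1 held 1.96% of that sum on average in mock DMSO and 0.828% in hemin DMSO, but 54.4% in mock nilotinib and 59.0% in hemin nilotinib. Leaving SLC4A1 out, the sum of the other 8 genes was 248 in mock DMSO, 751 in mock nilotinib, 138 in hemin DMSO and 672 in hemin nilotinib on average, so the rise was not that of band 3 alone. Without nilotinib MPP1 was first and EPB41 second of the 9 genes in every library, and with nilotinib EPB41 was last in every library.

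**Figure D1:**
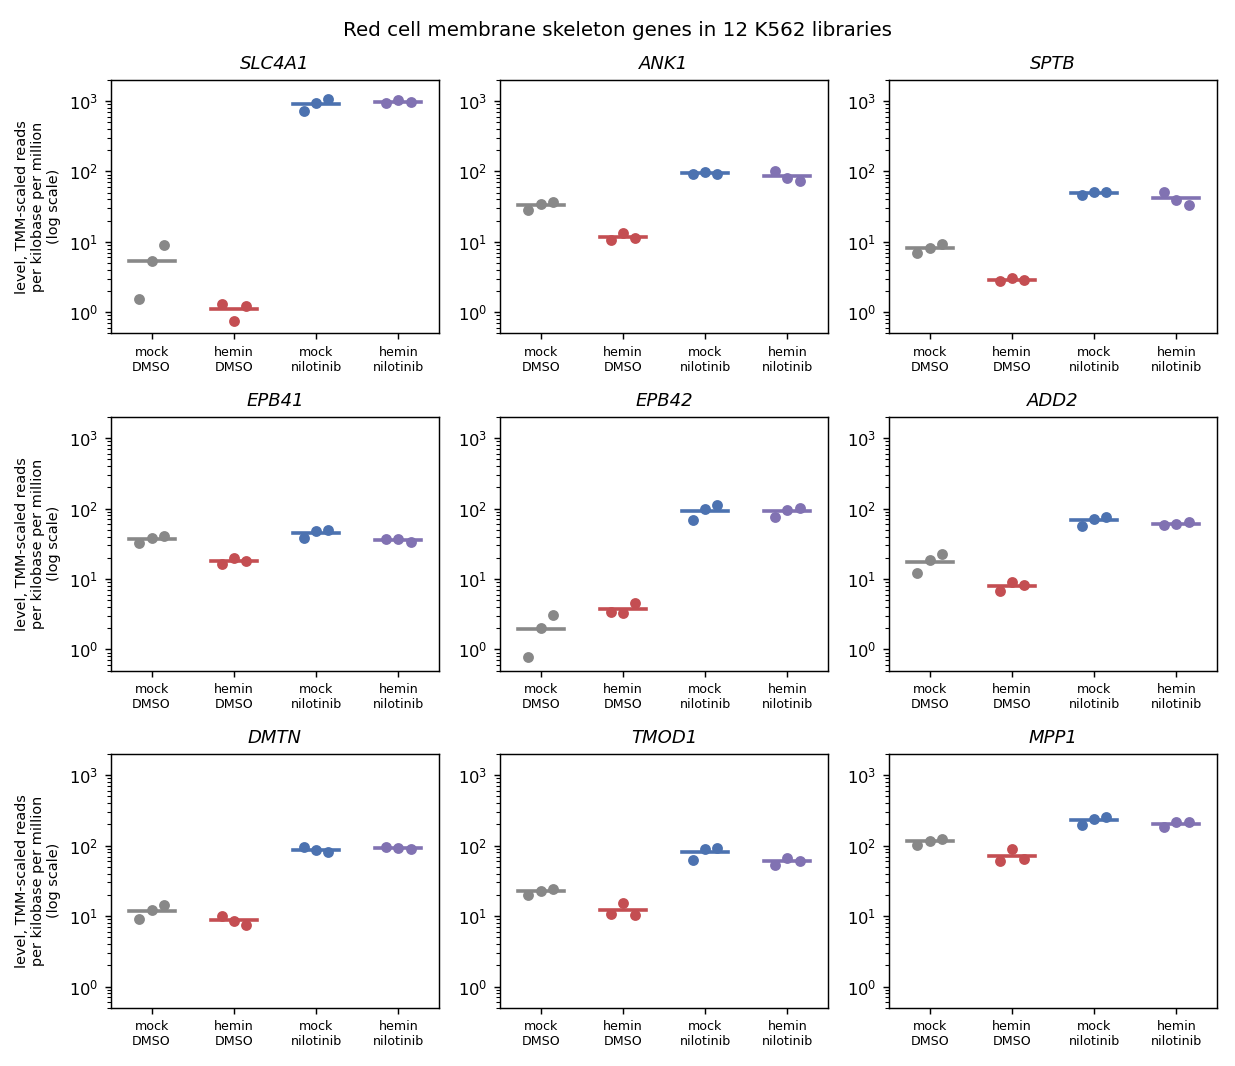
Level of each of the 9 genes in the 12 libraries, in TMM-scaled CPM per kilobase on a log axis shared by all panels, with a point per library and a bar at the mean of the 3 replicates. The nilotinib libraries stand above the others in 8 panels, by the widest gap for SLC4A1, whereas for EPB41 the mock DMSO points overlap those of both nilotinib conditions.

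In the presence of hemin, all 9 genes were higher with nilotinib at an adjusted p under 0.05, against 32.4% of all tested genes higher by the same rule, and in all 9 the 3 hemin nilotinib libraries lay above the 3 hemin DMSO libraries, against 31.5% of all genes. Log2 fold changes ran from 0.98 for EPB41 to 9.78 for SLC4A1 with a median of 2.93, where the median of all genes was 0.02. Without hemin, 8 of the 9 were higher with nilotinib, against 20.7% of all genes, and in these 8 the libraries did not overlap, against 29.8% of all genes. The median log2 fold change was 1.96, and that of all genes was 0.00. EPB41 was the exception, at 0.29 (95% interval -0.01 to 0.60).

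With hemin alone the set moved the other way. Compared with mock DMSO, 8 of the 9 genes were lower in hemin DMSO, against 27.8% of all genes lower, and EPB42 was higher, against 25.7% of all genes higher. The median log2 fold change was -1.04, and that of all genes was -0.05. In 7 of the 8 genes the hemin DMSO libraries lay below all mock DMSO libraries, against 32.9% of all genes, and in DMTN they overlapped. With nilotinib present, hemin changed none of the 9 at a Benjamini-Hochberg adjusted p under 0.05 in edgeR, against 5.80% of all genes changed. In 1 of the 9, EPB41, the hemin nilotinib libraries lay below the mock nilotinib libraries, against 11.6% of all genes. At an unadjusted p under 0.05 there were 2, EPB41 (-0.35) and TMOD1 (-0.45), both lower with hemin, and DESeq2 called none. The labels number the replicates but state no pairing. Same-numbered libraries of these 2 conditions departed together from their means (correlation 0.199 to 0.263), and the number was used as a block on that ground. In this unplanned fit to the 6 libraries TMOD1 passed (-0.42, adjusted p = 0.0443 in edgeR). SPTB passed (-0.46, adjusted p = 0.0456 in edgeR) without hemin nilotinib replicate 1. The comparisons that start from the same libraries share them, so the values of this paragraph and the last are set side by side and not correlated.

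**Figure D2:**
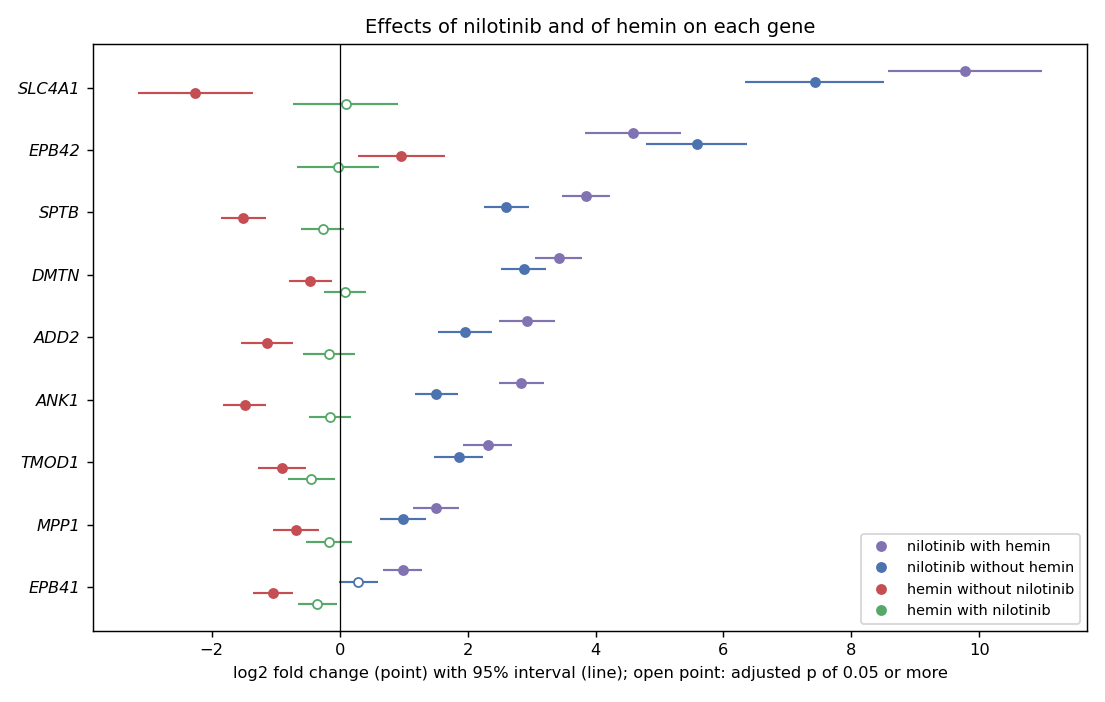
Log2 fold change of each gene (point) with its 95% interval (line) for nilotinib with and without hemin and for hemin with and without nilotinib, from the fit to all 12 libraries, with open points where the adjusted p was 0.05 or more. All points of nilotinib with hemin lie right of 0, all points of hemin with nilotinib are open, and EPB42 is the only gene to the right of 0 for hemin without nilotinib.

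SLC4A1 (ENSG00000004939, chromosome 17 from 44248385 to 44268141 on the minus strand) encodes band 3, the anion exchanger that also anchors the skeleton. In mock DMSO replicates 1 to 3 its level per kilobase was 1.52, 5.34 and 8.94. Hemin DMSO libraries had 1.33, 0.746 and 1.23. Mock nilotinib libraries had 717, 944 and 1052, and hemin nilotinib libraries 921, 1016 and 961. The nilotinib libraries were thus far above all others, the hemin DMSO libraries were lowest, and the mock DMSO libraries differed among themselves 5.87-fold. Nilotinib raised SLC4A1 172-fold without hemin (log2 7.42, SE 0.52, Benjamini-Hochberg adjusted p = 1.56e-08 in edgeR's quasi-likelihood test), and hemin alone lowered it by log2 -2.26 (SE 0.42, adjusted p = 0.000321 from the same edgeR test). With a library left out, the first of these ran from log2 6.94 to 8.02, the highest without mock DMSO replicate 3. Among 14208 protein-coding genes ordered by level per kilobase, SLC4A1 stood at rank 6429 in mock DMSO, 9926 in hemin DMSO and 30 in both nilotinib conditions. Of 12495 genes with a mean of at least 100 counts, 2 had a larger log2 fold change under nilotinib without hemin and 4 under nilotinib with hemin. The order of its 4 levels was hemin nilotinib and mock nilotinib, which did not differ beyond their spread (log2 0.10, 95% interval -0.73 to 0.92), then mock DMSO, then hemin DMSO.

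EPB42 (ENSG00000166947, chromosome 15 from 43197227 to 43221125 on the minus strand) encodes protein 4.2, a relative of the transglutaminases without enzyme activity that binds band 3. Its levels per kilobase were 0.781, 2.01 and 3.03 in mock DMSO and 3.45, 3.33 and 4.55 in hemin DMSO. They were 68.1, 98.5 and 112 in mock nilotinib and 76.6, 96.2 and 100.2 in hemin nilotinib. EPB42 was thus the lowest of the 9 genes in mock DMSO and a middle one with nilotinib. It rose with nilotinib by log2 5.58 (SE 0.37) without hemin and 4.59 (SE 0.35) with it, and it was the sole member to rise with hemin alone, by 0.97 (SE 0.32, Benjamini-Hochberg adjusted p = 0.0194 in edgeR's quasi-likelihood test). That last rise rested on few counts, 132 to 479 in mock DMSO and 317 to 545 in hemin DMSO, and it fell to 0.51 (adjusted p = 0.0790 from the same edgeR test) without mock DMSO replicate 1 and to 0.82 (adjusted p = 0.0790) without hemin DMSO replicate 3. It was 0.75 (adjusted p = 0.0591 from the same edgeR test) when libraries were scaled by their totals alone. A noncoding gene on the same strand overlaps 14.7% of the exon length of EPB42 and had a mean of 2.08 counts.

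The partners SLC4A1 and EPB42 kept different proportions in the 4 conditions. Per kilobase there were 1.95, 2.66 and 2.95 SLC4A1 for each EPB42 in mock DMSO replicates 1 to 3, and 0.385, 0.224 and 0.270 in the hemin DMSO libraries. In mock nilotinib the ratios were 10.5, 9.58 and 9.39, and in hemin nilotinib 12.02, 10.6 and 9.59. The ratios of the 3 groups hemin DMSO, mock DMSO and nilotinib did not overlap, and those of the nilotinib conditions did. The ratios were not tested, since 3 against 3 libraries cannot go below a p of 0.1 in an exact permutation test.

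ANK1 (ENSG00000029534, chromosome 8 from 41653220 to 41896762 on the minus strand) encodes ankyrin, the link from band 3 to spectrin. Its level per kilobase was 28.2, 34.4 and 36.5 in mock DMSO and 10.6, 13.3 and 11.4 in hemin DMSO. In mock nilotinib it was 91.1, 99.5 and 91.7 and in hemin nilotinib 101, 80.4 and 72.5. ANK1 was already the third of the 9 genes in mock DMSO, fell to less than any mock DMSO library with hemin alone, and was above every other library with nilotinib. It rose by log2 1.51 (SE 0.16, Benjamini-Hochberg adjusted p = 1.29e-06 in edgeR's quasi-likelihood test) without hemin and by 2.84 (SE 0.17) with it, and fell by 1.49 (SE 0.16) with hemin alone. An antisense gene with a mean of 25.2 counts overlaps 7.80% of the ANK1 exon length.

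SPTB (ENSG00000070182, chromosome 14 from 64746283 to 64879907 on the minus strand) encodes the β-spectrin of the red cell, the spectrin chain that ankyrin holds. SPTB stood at 6.94, 8.23 and 9.37 per kilobase in mock DMSO and at 2.76, 3.03 and 2.86 in hemin DMSO. With nilotinib it stood at 46.5, 51.3 and 51.8 without hemin and at 51.8, 39.0 and 33.8 with it. It rose with nilotinib by log2 2.61 (SE 0.17) without hemin and by 3.85 (SE 0.18, Benjamini-Hochberg adjusted p = 1.06e-10 in edgeR's quasi-likelihood test) with it, and fell by 1.504 (SE 0.16) with hemin alone. Exons of PLEKHG3 on the other strand overlap 23.0% of the SPTB exon length, and PLEKHG3 had a mean of 1.75 counts. The 2 linked genes kept a near constant ratio within each drug state, SPTB being 0.239 to 0.257 of ANK1 per kilobase in mock DMSO and 0.227 to 0.260 in hemin DMSO, and 0.510 to 0.565 in mock nilotinib and 0.466 to 0.513 in hemin nilotinib.

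SPTBN1, the β-spectrin of other tissues, went the opposite way. It was at 13.5, 10.3 and 8.77 per kilobase in mock DMSO and 7.82, 11.3 and 8.85 in hemin DMSO. It was at 1.30, 1.08 and 1.03 in mock nilotinib and 1.15, 1.36 and 1.14 in hemin nilotinib, below every library without nilotinib. It fell with nilotinib by 3.26 on the log2 scale (SE 0.19, Benjamini-Hochberg adjusted p = 2.16e-09 in edgeR's quasi-likelihood test) without hemin and by 2.94 (SE 0.18) with it. SPTB was 0.515 to 1.07 of SPTBN1 per kilobase in mock DMSO and 0.267 to 0.354 in hemin DMSO, and 35.8 to 50.2 times as high in mock nilotinib and 28.7 to 45.1 times as high in hemin nilotinib. Of the pair, SPTBN1 was the higher in every hemin DMSO library and SPTB in every nilotinib library.

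**Figure D3:**
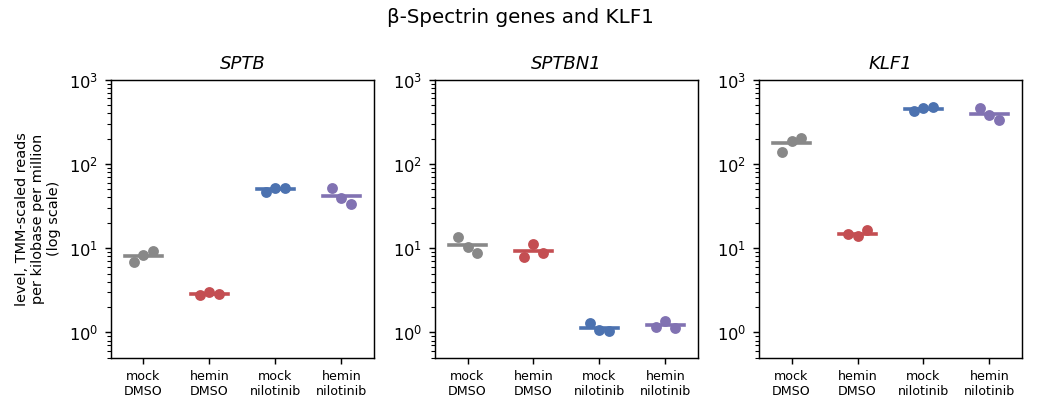
Levels of SPTB, SPTBN1 and KLF1 in the 12 libraries, in TMM-scaled CPM per kilobase on a shared log axis, with a point per library and a bar at the mean of 3. With nilotinib SPTB and KLF1 lie above and SPTBN1 below all libraries without it, SPTBN1 overlaps between mock and hemin DMSO where SPTB does not, and KLF1 is lowest in hemin DMSO.

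EPB41 (ENSG00000159023, chromosome 1 from 28887091 to 29120046 on the plus strand) encodes protein 4.1R, which strengthens the bond of spectrin with actin and ties it to glycophorin C. Mock DMSO libraries had 32.8, 38.2 and 40.4 per kilobase and hemin DMSO libraries 16.5, 20.0 and 17.7. Mock nilotinib libraries had 38.5, 47.8 and 50.3 and hemin nilotinib libraries 37.0, 36.4 and 33.7. The hemin DMSO libraries lay below all the rest, the hemin nilotinib libraries lay below the mock nilotinib libraries, and both nilotinib conditions overlapped mock DMSO. EPB41 fell by 1.04 on the log2 scale (SE 0.15, Benjamini-Hochberg adjusted p = 2.20e-05 in edgeR's quasi-likelihood test) with hemin alone, and was higher by 0.98 (SE 0.15) in hemin nilotinib than in hemin DMSO. Against mock DMSO, hemin nilotinib gave -0.06 (95% interval -0.36 to 0.25) and mock nilotinib 0.29 (adjusted p = 0.113 from the same edgeR test). The latter was 0.41 (adjusted p = 0.0243) with upper-quartile scaling, which moves the median of all genes by 0.11 in that comparison.

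MPP1 (ENSG00000130830, chromosome X from 154778684 to 154821007 on the minus strand) encodes p55, which binds protein 4.1R and glycophorin C. It was the most abundant member without nilotinib, at 104, 118 and 126 per kilobase in mock DMSO and 61.0, 90.6 and 65.2 in hemin DMSO. It reached 197, 242 and 253 in mock nilotinib and 181, 219 and 214 in hemin nilotinib. These were small shifts beside those of band 3, but the nilotinib libraries still lay above all others. MPP1 rose by log2 0.99 (SE 0.17, Benjamini-Hochberg adjusted p = 0.000189 in edgeR's quasi-likelihood test) without hemin and 1.503 (SE 0.17) with it, and fell by 0.68 (SE 0.17) with hemin alone. Its share of the summed level of the 9 genes went from 45.9% in mock DMSO and 51.8% in hemin DMSO to 14.0% and 12.5% in the nilotinib conditions.

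ADD2 (ENSG00000075340, chromosome 2 from 70607618 to 70768225 on the minus strand) encodes β-adducin, which caps and bundles actin at the junction. Mock DMSO libraries had 12.04, 18.3 and 22.4 per kilobase and hemin DMSO libraries 6.78, 8.92 and 8.30. Mock nilotinib libraries had 57.1, 71.7 and 76.2 and hemin nilotinib libraries 57.7, 60.8 and 64.4. It rose with nilotinib by log2 1.96 (SE 0.20) without hemin and 2.93 (SE 0.21) with it, and fell by 1.14 (SE 0.19, Benjamini-Hochberg adjusted p = 0.000139 in edgeR's quasi-likelihood test) with hemin alone. Its partner ADD1, the α-adducin of most cells, rose less, by 0.77 (SE 0.12) and 0.95 (SE 0.12). ADD2 was 0.694 to 1.18 of ADD1 per kilobase in mock DMSO, 0.447 to 0.560 in hemin DMSO, 1.99 to 2.26 in mock nilotinib and 1.91 to 2.17 in hemin nilotinib, so the ratio overlapped only between the nilotinib conditions.

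DMTN (ENSG00000158856, chromosome 8 from 22048995 to 22082527 on the plus strand) encodes dematin, an actin-bundling protein. It was at 9.15, 12.4 and 14.4 per kilobase in mock DMSO and 9.97, 8.58 and 7.55 in hemin DMSO, ranges that overlapped. It was at 96.1, 87.5 and 80.6 in mock nilotinib and 96.4, 93.1 and 90.4 in hemin nilotinib, well above both. DMTN rose by log2 2.88 (SE 0.17) and 3.42 (SE 0.17) with nilotinib, without and with hemin. Its fall with hemin alone was the smallest of the set, -0.46 (SE 0.16, Benjamini-Hochberg adjusted p = 0.0217 in edgeR's quasi-likelihood test). It did not pass with upper-quartile scaling (-0.34), with limma on log2(FPKM + 1) (-0.38), or when mock DMSO replicate 2 (-0.45), mock DMSO replicate 3 (-0.35) or hemin DMSO replicate 3 (-0.36) was left out, and it was -0.70 when libraries were scaled by their totals alone.

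TMOD1 (ENSG00000136842, chromosome 9 from 97501180 to 97601748 on the plus strand) encodes the tropomodulin that caps the slow-growing ends of the short actin filaments. Mock DMSO libraries had 19.8, 22.9 and 24.6 per kilobase and hemin DMSO libraries 10.7, 15.2 and 10.3. Mock nilotinib libraries had 63.5, 88.9 and 91.7 and hemin nilotinib libraries 52.7, 65.8 and 60.7. The 2 conditions without nilotinib lay below those with it, and hemin DMSO below mock DMSO. TMOD1 rose by log2 1.86 (SE 0.18) and 2.31 (SE 0.18) with nilotinib, without and with hemin, and fell by 0.90 (SE 0.17, Benjamini-Hochberg adjusted p = 0.000427 in edgeR's quasi-likelihood test) with hemin alone. Between the nilotinib conditions, hemin gave -0.45 (adjusted p = 0.142 from the same edgeR test), and -0.42 (adjusted p = 0.0443) in a fit to these 6 libraries with the replicate number as a block. Exons of TSTD2 on the other strand overlap 45.0% of the TMOD1 exon length, and TSTD2 had a mean of 887 counts. Whether the counting used strand is not given in the sources used here, so reads in the shared stretch may be split between them.

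**Figure D4:**
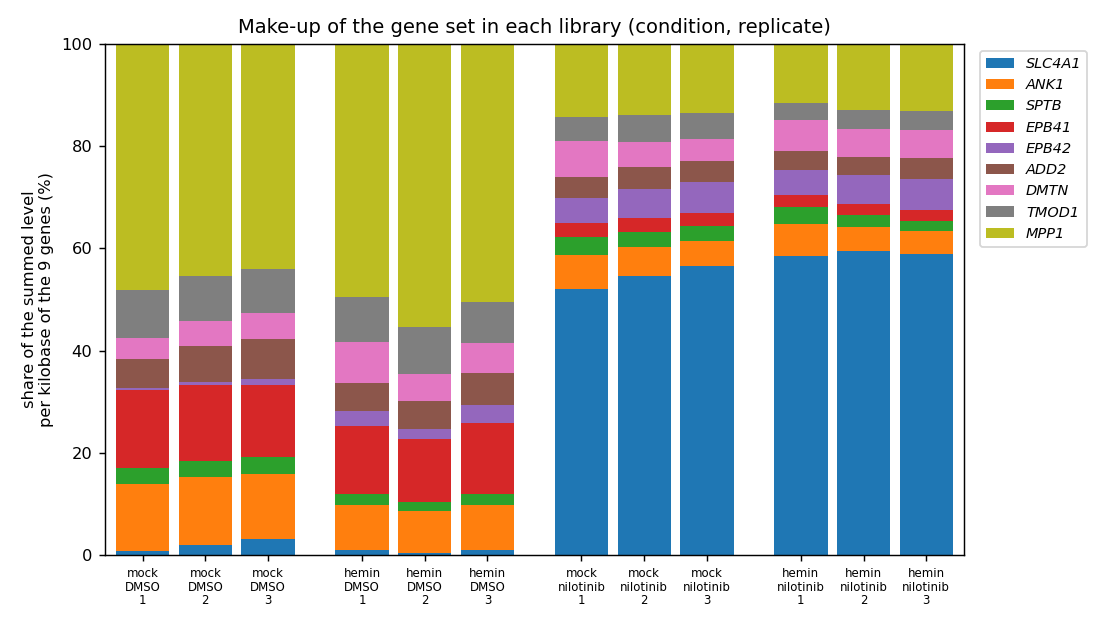
Share of each gene in the summed level per kilobase of the 9 genes, in percent, as a stacked bar for each of the 12 libraries. MPP1 is the widest band in the 6 libraries without nilotinib, at 44.1% to 55.3%, and SLC4A1 in the 6 libraries with it, at 52.1% to 59.5%.

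The effect of nilotinib was larger with hemin than without it for 5 of the 9 genes by the interaction test, against 17.1% of all genes in that direction. None of the 9 passed in the other direction in the main fit to all 12 libraries. The difference of the 2 log2 fold changes was 2.35 for SLC4A1 (SE 0.57), 1.33 for ANK1 (SE 0.22), 1.24 for SPTB (SE 0.23), 0.97 for ADD2 (SE 0.27) and 0.69 for EPB41 (SE 0.20), with Benjamini-Hochberg adjusted p between 0.000391 and 0.0184 in edgeR. In each of these 5 the hemin DMSO libraries were the lowest of the 12, and the difference between the nilotinib conditions did not pass the test in the main fit. EPB42 had the opposite sign, -0.99 (SE 0.44, adjusted p = 0.100 from the same edgeR test), and it passed in 3 of 22 alternatives. It was -1.44 (adjusted p = 0.0169 in edgeR) without mock DMSO replicate 3. With all genes of at least 1 count kept it was -0.93 (adjusted p = 0.000613 in edgeR). With the replicate block in all 12 libraries it was -1.07 (adjusted p = 0.0181 in edgeR). The other 3 genes passed in the direction of the 5 when 1 library was left out, DMTN at 0.78 without mock DMSO replicate 1 and 0.64 without hemin DMSO replicate 1, and TMOD1 at 0.65 and MPP1 at 0.70 without hemin DMSO replicate 2. They also passed with library totals only (DMTN 0.75, TMOD1 0.68 and MPP1 0.73), and DMTN with all genes of at least 1 count (0.62). The SLC4A1 difference was 1.46 (adjusted p = 0.0552) in limma on log2(FPKM + 1), a scale that understates the change of low genes.

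The comparison of either agent alone set nilotinib far above hemin. Each of the 9 genes was higher in mock nilotinib than in hemin DMSO, against 32.5% of all genes, from log2 1.33 for EPB41 to 9.68 for SLC4A1. With nilotinib and hemin together, 8 of the 9 were higher than with neither, against 24.2% of all genes, and EPB41 was not. Between the nilotinib conditions none of the 9 passed the test in the main fit to all 12 libraries. As given above, TMOD1 passed with the replicate block in the 6 libraries, and SPTB passed without hemin nilotinib replicate 1. In the main fit, the widest of the 95% intervals of the difference between the nilotinib conditions, that of SLC4A1, ran from -0.73 to 0.92.

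Within mock DMSO, all 9 genes were lowest in replicate 1 and highest in replicate 3, as were 39.2% (lowest) and 37.8% (highest) of all tested genes. In mock nilotinib 8 were lowest in replicate 1 and 7 highest in replicate 3, against 38.8% and 34.0%. In hemin DMSO 5 were lowest in replicate 1 and 6 highest in replicate 2, against 34.6% and 35.3%. In hemin nilotinib 5 were lowest and 4 highest in replicate 1, against 42.8% and 37.2%. The spread within mock DMSO was widest for SLC4A1, with a coefficient of variation of 70.4%, and for EPB42, with 58.0%, and narrowest for MPP1, with 9.81%. With nilotinib and hemin it was 4.91% for SLC4A1 and 13.9% for EPB42. The folds of SLC4A1 and EPB42 against mock DMSO carry this spread.

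The rest of the red cell membrane machinery was described on a list of 21 other genes, of which 20 were tested and ICAM4 had 0 counts in every library. With nilotinib under hemin 12 were higher and 4 lower, with a median log2 fold change of 0.96, against 32.4% of all genes higher and 31.8% lower. Without hemin 11 were higher and 5 lower, with a median of 0.70, against 20.7% of all genes higher and 21.8% lower. The water channel AQP1 rose most, by 5.78 (SE 0.28) under hemin, and the Kell blood group gene KEL rose by 4.45 (SE 0.18). The fallers included the cytoplasmic actin ACTG1, at -1.87 (SE 0.25). With hemin alone 3 were higher and 11 lower, with a median of -0.46, against 25.7% of all genes higher and 27.8% lower. Those 14 were 9 without mock DMSO replicate 2, without mock DMSO replicate 3 or without hemin DMSO replicate 3.

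The relatives of the 9 genes that other tissues use were listed as 33 paralogs. Of these 27 were tested, and with nilotinib under hemin 9 were higher and 9 lower, with a median of -0.03, shares near the 32.4% and 31.8% of all genes. Without hemin 8 were higher and 5 lower, with a median of -0.11, against 20.7% and 21.8% of all genes. The relatives of EPB41 went both ways. EPB41L2 fell by 1.47 (SE 0.16) on the log2 scale without hemin and by 1.92 (SE 0.16) with it. Under hemin EPB41L1 (-1.79) and EPB41L5 (-0.91) were also lower with nilotinib, and EPB41L4A (2.14) and EPB41L4B (0.90) were higher. ADD1 is on this list and on the list of other skeleton genes.

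The 7 erythroid transcription factors listed (GATA1, KLF1, TAL1, NFE2, ZFPM1, LMO2 and LDB1) were counted in the same way. All 7 were higher with nilotinib under hemin, against 32.4% of all genes, and 6 of them without hemin, against 20.7%. All 7 were lower with hemin alone, against 27.8%, and in all 7 the effect of nilotinib was larger with hemin by the interaction test, against 17.1%. KLF1, which activates red cell membrane and globin genes, had 177 ± 34.3 (SD, n = 3) per kilobase in mock DMSO and 14.9 ± 1.25 (SD, n = 3) in hemin DMSO, and 455 ± 28.2 (SD, n = 3) in mock nilotinib and 391 ± 69.3 (SD, n = 3) in hemin nilotinib. It fell by 3.57 (SE 0.18) on the log2 scale with hemin alone and was higher by 4.71 (SE 0.19) with nilotinib under hemin. GATA1 moved less, by -0.91 (SE 0.14) and 1.005 (SE 0.14), and TAL1 by -1.46 (SE 0.17) and 3.06 (SE 0.18). With nilotinib without hemin GATA1 had the smallest rise of the 7, 0.34, and was the exception that did not pass.

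Over the 12 libraries the 36 pairs among the 9 genes had Pearson correlations of log2 CPM from 0.519 (EPB42 with EPB41) to 0.994 (DMTN with SLC4A1), with a median of 0.950. These points share 4 conditions and their library scaling, so the values describe the condition means more than the replicates. Among 12495 genes with a mean of at least 100 counts, the 3 with the highest correlation to SLC4A1 were AP003555.2, C17orf99 and CA1, and to EPB42 they were ELL2, OSR2 and LBH. For ANK1 they were LMO2, CHST2 and MED16, for SPTB GAB1, KAT2B and FAXDC2, and for EPB41 C14orf93, ELOVL6 and RNPEPL1. They were CPQ, FAXDC2 and KLHDC8A for ADD2, AQP1, PIGQ and SLC22A4 for DMTN, FAM210B, CPQ and FBXW4 for TMOD1, and XK, CPQ and TMPRSS4 for MPP1. The 27 correlations ran from 0.988 to 0.997. With Spearman's rank correlation 3 of the 27 pairs were found again, and with a minimum mean of 1000 counts 23 were.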

How the data were processed

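RNA of 12 K562 libraries was sequenced as 150-base paired-end reads by a sequencing service. The authors deposited raw counts per gene without normalization, which were the input of all tests, and FPKM per gene and library, used only in alternatives. The deposited FPKM are counts per kilobase divided by the median-of-ratios size factor of the library, so they are scaled as in DESeq2. A table of FPKM means was not used here. The submitters' processing notes name GRCh38.p12, DESeq and DESeq2 with no role. The aligner and counter are not given in the sources used here. All 58735 genes were found in GENCODE release 29, and 58724 had the same start and end.

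Counts were fitted in R 4.3.3 with edgeR 4.0.16. Genes passed filterByExpr (minimum count 10, minimum total count 15), received TMM factors and entered a quasi-likelihood model of the 12 libraries with 1 mean per condition. Tests were two-sided, and a gene was called at a Benjamini-Hochberg adjusted p under 0.05 over all 20821 genes. SE is the log2 fold change divided by the square root of F, and intervals are 95%. Alternatives used DESeq2 1.42.0, limma 3.58.1 (limma-trend on log2 FPKM with a pseudocount of 1 or 0.1), other scalings and filters, a 2-fold minimum, the compared libraries alone, a replicate block and libraries left out. Code was tested on simulated data. Figures were made in Python 3.11.15 with matplotlib 3.10.9.

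The members, the lists of other genes and the markers were chosen with earlier results of these data known. A few listed genes are not reported here and were left out of the counts of their lists. All members are named, and beside them genes of the lists and the 3 genes most correlated with each member. No per-sample column was left unmapped. Replicates of a condition differed by more than sampling noise, with chi-square per degree of freedom of 13.7 or more. The labels number the replicates and state no pairing. Libraries of mock nilotinib and hemin nilotinib with the same number departed together from their means over all genes (correlation 0.199, 0.254 and 0.263). No other pair of conditions passed 0.1 in every number, so the numbers were taken to pair these 2 conditions alone. This cut was not tested, and some other pairs lay close to it. Mock DMSO with mock nilotinib had 0.0948, 0.0869 and 0.0989, and mock DMSO with hemin nilotinib -0.0796, 0.0922 and -0.0339. Mock DMSO with hemin DMSO had 0.0989, 0.104 and 0.0849, and mock nilotinib with hemin DMSO 0.0793, 0.117 and 0.0873. Hemin DMSO with hemin nilotinib had -0.00712, 0.0818 and 0.235. Whether other conditions are paired more weakly was not tested.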

Additional observations from a re-analysis of the deposited data

Results flagged for a closer look

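The difference between the effects of nilotinib with and without hemin passed its own test for 5 of the 9 genes, and these are given again with both effects. For SLC4A1 the log2 fold change was 9.78 with hemin and 7.42 without, a difference of 2.35 (95% interval 1.14 to 3.56). For ANK1 the effects were 2.84 and 1.51, a difference of 1.33 (0.87 to 1.80). For SPTB they were 3.85 and 2.61, a difference of 1.24 (0.76 to 1.72). For ADD2 they were 2.93 and 1.96, a difference of 0.97 (0.40 to 1.55), and for EPB41 0.98 and 0.29, a difference of 0.69 (0.26 to 1.12). In each of them the mock DMSO and hemin DMSO libraries differed and the nilotinib conditions did not pass the test against each other in the fit to all 12 libraries.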

How the results depend on the processing

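Of 1125 values of the 9 genes under alternatives, 1086 kept their direction and their side of the threshold, 18 lost the call, 14 gained one and 7 turned sign. The 9 nilotinib calls with hemin and the 8 without hemin were kept except where a 2-fold change was required (EPB41 with hemin, MPP1 without). The values that turned sign were near 0. They were EPB41 in hemin nilotinib against mock DMSO (0.0525 with upper-quartile scaling), and for hemin with nilotinib EPB42 (0.000603 and 0.000683 with the replicate block in 12 and in 6 libraries, and -0.21 to 0.10 with a library left out), SLC4A1 (-0.0486 to 0.19 with a library left out) and DMTN (-0.000422 to 0.15).

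With a 2-fold minimum, members past the threshold were 5 for hemin without nilotinib and 3 for the interaction, and with library totals only 8 passed the interaction. For hemin with nilotinib 1 member passed with the replicate block in the 6 libraries (TMOD1) and 0 to 1 with a library left out (SPTB at -0.46, without hemin nilotinib replicate 1). Over all genes, a 2-fold minimum left 4872 for nilotinib without hemin, 6474 for hemin without nilotinib, 4073 for the interaction, 5518 for both agents against neither and 565 for hemin with nilotinib. That last count, 1208, was also 1902 in DESeq2, 1987 with all genes of at least 1 count, 741 and 694 in limma-trend with pseudocounts 1 and 0.1, 183 in the 6 libraries alone, 1600 in these with the replicate block, and 213 to 2793 with a library left out. The block changed no other call of a member in that comparison. In the other comparisons the numbers were not taken to pair the libraries, and the block in all 12 libraries called the EPB42 interaction (-1.07). The causes were not tested.

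Scaling by totals alone moved the median of all genes by 0.18 for nilotinib with hemin, -0.24 for hemin without nilotinib and 0.21 for the interaction, and the higher and lower calls were then 7719 and 5502, 3881 and 7578, and 4799 and 1752. Upper-quartile scaling moved it by 0.12 for hemin without nilotinib. With 3 libraries per condition and as few as 120 counts of SLC4A1 and 132 of EPB42 in a library, the size of their folds against DMSO conditions is the least certain.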
